A study of Arabidopsis thaliana with 9 samples.

Results

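The touch-inducible calmodulin genes of *Arabidopsis thaliana* were taken as 9 loci by their identifiers: the calmodulin *CAM2* (AT2G41110) and the calmodulin-like (CML) genes *TCH2* (*CML24*, AT5G37770), *TCH3* (*CML12*, AT2G41100), *CML23* (AT1G66400), *CML9* (AT3G51920), *CML11* (AT3G22930), *CML37* (AT5G42380), *CML38* (AT1G76650) and *CML39* (AT1G76640). All 9 had values among the 25717 genes of the table, and 7 passed the filter on low values that 19454 genes passed. Their mRNA was compared between whole seedlings of wild-type Col-0, of *exg1-1*, a T-DNA insertion mutant of the cell wall gene *EXG1* (AT3G08030), and of *rlp44-3*, which carries a mutant allele of the receptor-like protein gene *RLP44* (AT3G49750). Both mutants are in the Col-0 background and each is represented by 1 allele. Seedlings were 7 days old and were grown in 8 h light and 16 h dark at 20 °C. No wounding or touch treatment is described for them, so the touch response of these genes was not measured here. Their handling at harvest is not described either, and its part in the differences was not tested.

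Calmodulins are small proteins with calcium-binding loops called EF-hands, which change shape when calcium rises in the cell and then bind other proteins. Plants have a few nearly identical calmodulins and a larger set of CML proteins with the same kind of loop but diverged sequence. The *TOUCH* (*TCH*) genes were found as transcripts that build up within minutes after plants are touched, sprayed or blown by wind, and *CAM2*, *TCH2* and *TCH3* are among them, with the cell wall enzyme gene *TCH4* (*XTH22*). Transcripts of this kind are known to respond also to wounding, cold, darkness and pathogens.

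The deposited values were fitted means and not counts. None of the values in the 9 columns used was whole within 1e-06, and the 3 columns of a genotype were multiples of each other over all genes, with a largest relative deviation of 1.9e-14. The table thus holds 1 value per gene and genotype, no spread between the 3 libraries can be had from it, and no test between genotypes was possible. In its place, each fold difference is given with a 95% interval from the reads behind it, which covers counting error only and is narrower than an interval over plants would be. Fitted values per library summed to between 8364383 and 9606982 in Col-0, between 10396228 and 12971468 in *exg1-1* and between 11015026 and 11535985 in *rlp44-3*. Levels are the sum of a genotype's columns per 1000000 reads after scaling (scaled CPM). *EXG1* stood at 103 scaled CPM in Col-0 and 33.8 in *exg1-1*, and *RLP44* was at 1.08 reads over the *rlp44-3* libraries against 102 in Col-0. Shoot and root marker genes were present in every genotype. Each of 8 seed genes that passed the filter was lower in both mutants, with a summed level of 42.0 scaled CPM in Col-0, against 7.49 in *exg1-1* and 4.94 in *rlp44-3*. All 8 were at least 1.5-fold lower in *exg1-1* and in *rlp44-3*, where 5.3% and 3.15% of kept genes were. *CRA1*, *CRU3*, *OLEO1*, *EM1* and *ECP63* passed the filter only through Col-0, where they were high, so this count is a description. The 3 root markers (*EXPA7*, *COBL9*, *CASP1*) were lower in both mutants as well, with summed levels of 33.3, 24.9 and 31.0 scaled CPM in Col-0, *exg1-1* and *rlp44-3*, whereas the 3 shoot markers summed to 38905, 42982 and 42633. Morning clock genes summed to 101, 114 and 85.7 scaled CPM and evening clock genes to 181, 216 and 209. The part of these differences in the results on the calmodulin genes was not tested, and in whole seedlings fewer cells of a type and less RNA per cell cannot be told apart.

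The members spanned a wide range of levels. Per kilobase of annotated exon, *CAM2* led in Col-0 with 44.8 scaled CPM per kb, followed by *CML9* with 34.3, *TCH2* with 9.36, *TCH3* with 4.69, *CML11* with 2.14, *CML23* with 1.91, *CML38* with 0.738, *CML39* with 0.179 and *CML37* with 0.0855. With the shortest annotated transcript of each gene as its length, this order in Col-0 was unchanged, although *TCH2* then came to 20.7 and *TCH3* to 10.02 scaled CPM per kb. In *exg1-1*, *TCH3* came close to *TCH2*, with 9.48 against 10.5 scaled CPM per kb. Of the summed level of the 52 calmodulin and CML genes with values, the 9 genes made up 11.5% in wild type, 14.4% in *exg1-1* seedlings and 13.1% in those of *rlp44-3*.

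**Figure D1:**
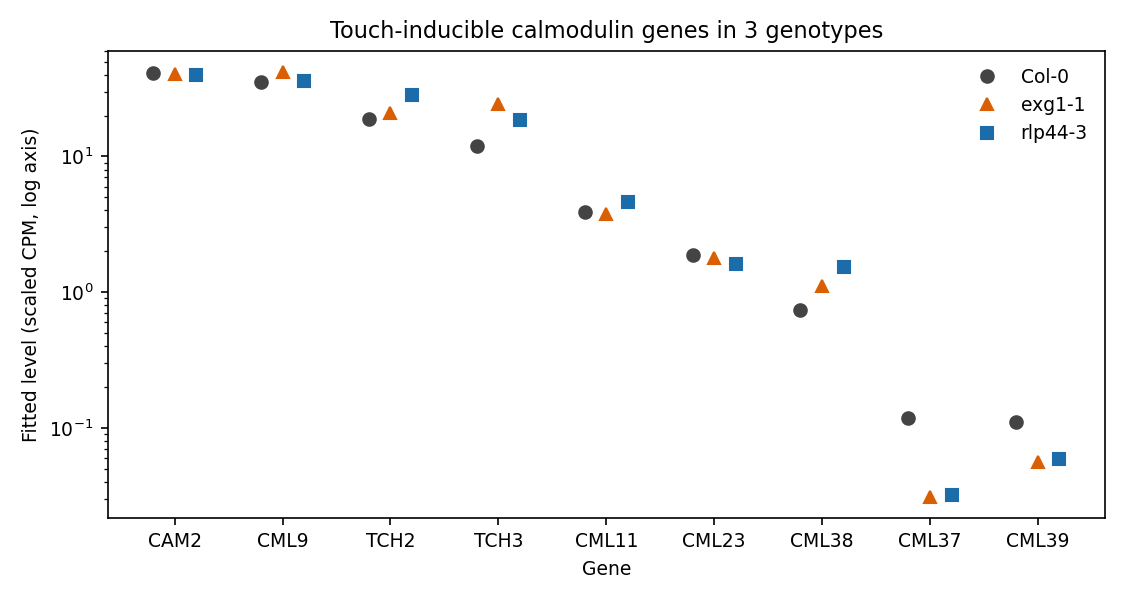
Fitted level of each of the 9 genes (scaled CPM, log axis) in Col-0, *exg1-1* and *rlp44-3*, 1 point per genotype, ordered by the Col-0 level. *TCH3* and *CML38* lay above Col-0 in both mutants, *CAM2* hardly moved, and *CML37* and *CML39* were near the limit of detection.

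The proteins fall into groups by sequence. CAM2 has 149 residues with 4 matches to the PROSITE EF-hand loop pattern and is identical to CAM3 and CAM5. TCH3, with 324 residues and 6 such loops, is 63.8% identical to CAM2 over the length of the shorter protein, CML11 is 74.5% and CML9 49.7% identical to it, and CML9 has 2 pattern matches. TCH2 and CML23 are nearest relatives of each other (76.4%), as are CML38 and CML39 (71.1%), and CML37 is 51.4% identical to CML38. Reads were 150 bases long, and the longest exact stretch that a member's longest transcript shared with the longest transcript of another gene was 61 bases, in *CML11*, so that no whole read matched both of these without a mismatch.

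*TCH3*, whose product binds the auxin-related kinase PINOID, showed the largest difference in *exg1-1* among the 7 members that passed the filter. Its fitted reads per library were 99.9, 113 and 115 in Col-0, against 242, 294 and 302 in *exg1-1* and 207, 210 and 217 in *rlp44-3*. Both mutants lay above Col-0, and *exg1-1* was the highest of the genotypes. After scaling, *TCH3* stood at 12.0 scaled CPM in Col-0, against 24.2 in *exg1-1* and 18.7 in *rlp44-3*. The level in *exg1-1* was 2.02-fold that in Col-0 (counting interval 1.78 to 2.30), a log2 difference of 1.01, and 0.915% of the 19454 kept genes had a log2 difference at least as high. In *rlp44-3* it was 1.56-fold (1.37 to 1.79), a log2 difference of 0.65. The *exg1-1* level was 1.29-fold the *rlp44-3* level (1.16 to 1.44). *TCH3* (chr2:17137037-17139700, plus strand, TAIR10.1) overlaps AT2G41105 on the other strand over its whole 827 bases, and AT2G41105 had at most 0.389 reads per library. The strand setting used in counting is not given, so this value cannot show how reads in the overlap were assigned. A further gene on the other strand, AT2G09220, overlaps *TCH3* by 342 bases and had no values, so its reads are not known.

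*TCH2*, which takes part in the control of flowering time and ion responses, was higher in *rlp44-3* than in the other genotypes. Fitted reads per library were 157, 177 and 180 in Col-0, against 211, 257 and 264 in *exg1-1* and 312, 316 and 327 in *rlp44-3*. The 3 *rlp44-3* columns stood above all others, while much of the gap between *exg1-1* and Col-0 went with the larger *exg1-1* libraries. *TCH2* had 18.8 scaled CPM in Col-0, against 21.1 in *exg1-1* and 28.2 in *rlp44-3*. This was 1.12-fold in *exg1-1* (1.00 to 1.26) and 1.498-fold in *rlp44-3* (1.34 to 1.67), where the log2 difference of 0.58 lay just under the 1.5-fold mark. The *exg1-1* level was 0.749-fold the *rlp44-3* level (0.679 to 0.825). *TCH2* and *TCH3* therefore differed in their order among the mutants: *TCH3* was highest in *exg1-1* and *TCH2* in *rlp44-3*, and in each direct comparison of the mutants the counting interval left out 1. *TCH2* (chr5:14997514-14999619, minus strand) overlaps AT5G37760 on the other strand, which had at most 1.099 reads per library. Without the strand setting, this value too cannot show how reads in the overlap were assigned.

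*CML38*, a gene known to be induced by wounding and by low oxygen, was lowly expressed. Its fitted reads were 6.13, 6.90 and 7.04 in the libraries of Col-0, 11.2, 13.6 and 14.0 in those of *exg1-1* and 17.0, 17.2 and 17.8 in those of *rlp44-3*. Col-0 was the lowest and *rlp44-3* the highest. The scaled levels were 0.733, 1.12 and 1.53 CPM, so that *CML38* passed the filter only through the mutants. The fold over Col-0 was 2.09 in *rlp44-3* (1.23 to 3.71), a log2 difference of 1.07 that 0.535% of kept genes reached, and 1.52 in *exg1-1*, where the counting interval from 0.875 to 2.78 held 1. The mutants were not distinguishable from each other by their reads (0.727-fold, 0.471 to 1.13). The share of 0.535% is over genes of all levels, and high folds were commoner among low-level genes. In *rlp44-3*, 2.07% of all kept genes were at least 1.5-fold higher, against 0.781% of those with a mean of at least 10 scaled CPM.

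The other 4 members that passed the filter stayed within 1.5-fold of Col-0 in both mutants. *CAM2* had fitted reads of 345, 388 and 396 in Col-0, against 410, 497 and 511 in *exg1-1* and 439, 444 and 459 in *rlp44-3*. This came to 41.2 scaled CPM in Col-0, against 40.8 in *exg1-1* and 39.6 in *rlp44-3*, with folds of 0.990 (0.915 to 1.07) and 0.960 (0.886 to 1.04) over Col-0. *CAM2* was thus the steadiest *TCH* gene, although 2 genes overlap it on the other strand. AT2G41120, with 71.4 to 122 reads per library, overlaps its end by 157 bases, and AT2G09225, with at most 0.680 reads, by 609 bases. *CML9*, linked to salt, abscisic acid and immune responses, had fitted reads of 294, 331 and 338 in Col-0, against 421, 511 and 525 in *exg1-1* and 401, 407 and 420 in *rlp44-3*. Its levels were 35.2, 41.9 and 36.2 scaled CPM in Col-0, *exg1-1* and *rlp44-3*. Its level was 1.19-fold that of Col-0 in *exg1-1* (1.097 to 1.29) and 1.03-fold in *rlp44-3* (0.944 to 1.12). *CML11*, a close relative of the calmodulins, had 3.91, 3.76 and 4.61 scaled CPM, and *CML23*, the nearest relative of *TCH2*, had 1.86, 1.77 and 1.62. The counting intervals of *CML11* and *CML23* held 1 in each comparison of the genotypes.

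*CML37*, with a role in defence against herbivores, and *CML39*, with a role in seedling establishment, did not pass the filter. *CML37* summed to 3.21 reads over the Col-0 libraries, 1.08 over *exg1-1* and 1.08 over *rlp44-3*. *CML39* summed to 3.01, 1.95 and 2.00 reads. Both genes had the most reads in Col-0, but at about 3 reads or fewer in every genotype no fold is given, and a difference was not detectable at this depth.

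**Figure D2:**
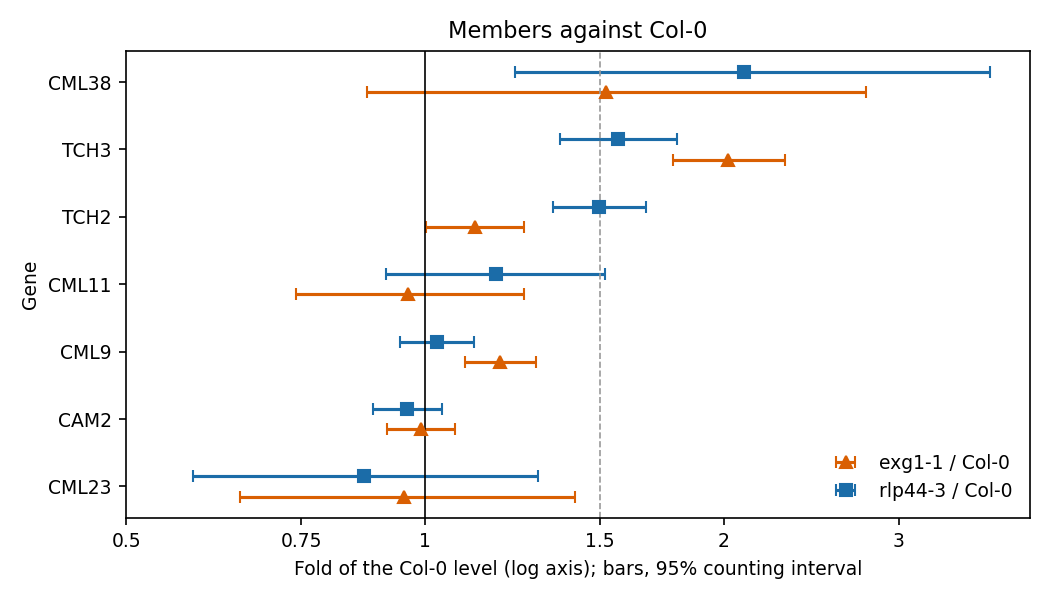
Fold of the Col-0 level (log axis) in *exg1-1* and *rlp44-3* for the 7 members that passed the filter. Points are single fitted values, bars are 95% counting intervals, the solid line marks 1 and the dashed line 1.5. *TCH3* lies beyond 1.5 in both mutants and *TCH2* at 1.498 in *rlp44-3*, and the bars of *CML23*, *CML11* and *CAM2* cross 1 in both.

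Against the background of all kept genes, 2 of the 7 members (*TCH3* and *CML38*) were at least 1.5-fold higher in *exg1-1*, where 3.01% of kept genes were, and 0 were at least 1.5-fold lower, where 5.3% were. In *rlp44-3* the same pair was at least 1.5-fold higher, against 2.07% of kept genes, and 0 were lower, against 3.15%. Because *CML38* passed the filter only where it was high, these counts are a description. The median log2 difference of the 7 members was 0.17 in *exg1-1* and 0.24 in *rlp44-3*, beside medians of −0.0044 and −0.00030 over all kept genes. With the minimum required in every genotype, which leaves out *CML38*, these medians were 0.07 and 0.14, and with all 9 members and no filter they were 0.01 and 0.05. Between the mutants, 0 members were 1.5-fold apart in either direction, where 3% of kept genes were higher and 3.98% lower in *exg1-1*. At 2-fold, 1 member was higher in *exg1-1* (*TCH3*, where 0.956% of kept genes were), 1 in *rlp44-3* (*CML38*, 0.586%) and 0 in *exg1-1* relative to *rlp44-3* (0.946%). No member, 0 of 7, was 2-fold lower in *exg1-1* (1.61% of kept genes), in *rlp44-3* (1.09%) or in *exg1-1* relative to *rlp44-3* (1.06%). By direction alone, 4 of 7 were higher in *exg1-1* than in Col-0 (49.2% of kept genes), 5 of 7 in *rlp44-3* (49.9%) and 4 of 7 in *exg1-1* relative to *rlp44-3* (50.2%), which is near the background. Both comparisons with wild type use the same Col-0 libraries and are not independent of each other.

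**Figure D3:**
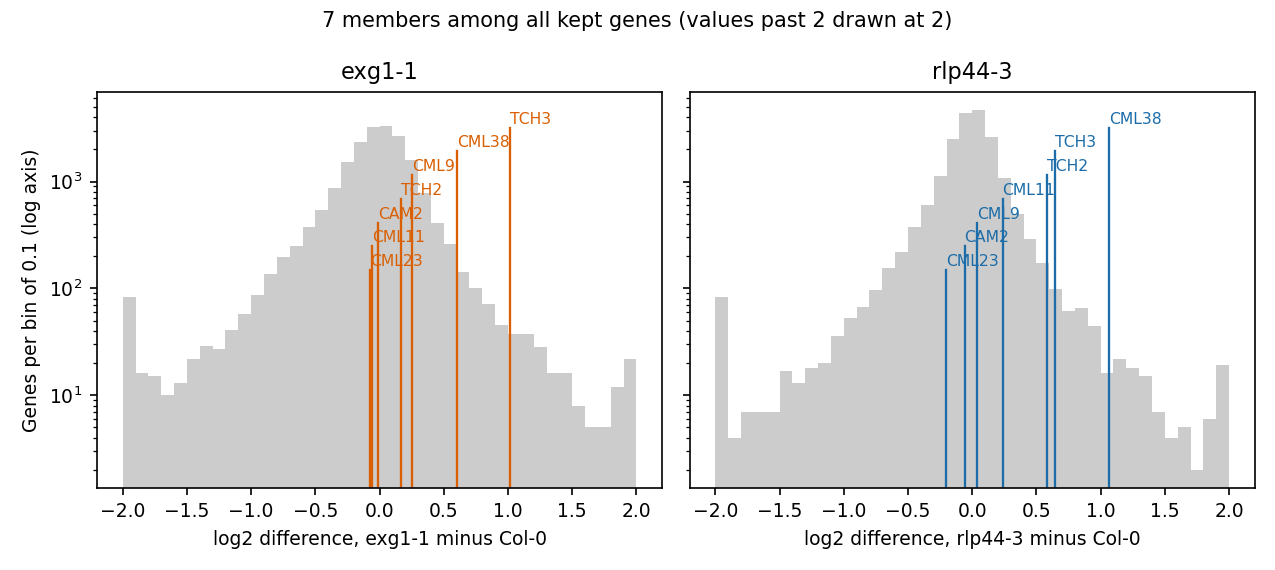
Log2 differences of all 19454 kept genes against Col-0 (grey, number of genes per bin of 0.1, log axis, values past 2 drawn at 2) with the 7 members as labelled lines. In *exg1-1* only *TCH3* (1.01) and *CML38* (0.61) of the members lie in the right tail, and in *rlp44-3* *TCH2* (0.58), *TCH3* (0.65) and *CML38* (1.07) do.

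Several members lie beside a relative on the chromosome, which allowed neighbours to be compared. *CML10* (AT2G41090), *TCH3* and *CAM2* follow each other on the same strand of chromosome 2, with 37 bases between *CML10* and *TCH3* and 482 between *TCH3* and *CAM2*. *TCH3* was 2.02-fold its Col-0 level in *exg1-1*, whereas *CML10* upstream of it was 0.829-fold (0.737 to 0.933) and *CAM2* downstream 0.990-fold. In *rlp44-3* the folds of these 3 genes were 1.56 for *TCH3*, 0.873 for *CML10* (0.777 to 0.982) and 0.960 for *CAM2*. The higher level of *TCH3* did not extend to its neighbours. *TCH2* lies next to *CAM1* (AT5G37780) on chromosome 5, 4846 bases apart, and *CAM1* was at 0.996-fold in *rlp44-3* (0.9502 to 1.04), where *TCH2* was at 1.498-fold. *CML23* lies next to *CAM4* (AT1G66410) on chromosome 1, 2719 bases apart, and *CML38* next to *CML39*, 883 bases apart.

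To show how the nearest relatives *TCH2* and *CML23* and the low-level gene *CML38* compare in sequence before the gene, the 250 bases upstream of the annotated start are given 5′ to 3′ (RefSeq, TAIR10.1). Capitals mark CGCG, the core that calmodulin-binding CAMTA transcription factors are known to bind.
TCH2 (chr5:14999620-14999869, minus strand): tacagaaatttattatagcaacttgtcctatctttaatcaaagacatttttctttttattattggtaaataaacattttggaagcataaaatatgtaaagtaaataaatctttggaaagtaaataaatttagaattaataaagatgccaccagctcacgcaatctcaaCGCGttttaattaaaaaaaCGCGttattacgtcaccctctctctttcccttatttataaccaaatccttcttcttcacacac
CML23 (chr1:24771394-24771643, minus strand): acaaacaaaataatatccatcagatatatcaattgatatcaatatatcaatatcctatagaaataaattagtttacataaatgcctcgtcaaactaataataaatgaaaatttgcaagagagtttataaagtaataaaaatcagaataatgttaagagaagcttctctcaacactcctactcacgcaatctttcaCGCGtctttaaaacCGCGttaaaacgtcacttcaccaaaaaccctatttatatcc
CML38 (chr1:28768139-28768388, minus strand): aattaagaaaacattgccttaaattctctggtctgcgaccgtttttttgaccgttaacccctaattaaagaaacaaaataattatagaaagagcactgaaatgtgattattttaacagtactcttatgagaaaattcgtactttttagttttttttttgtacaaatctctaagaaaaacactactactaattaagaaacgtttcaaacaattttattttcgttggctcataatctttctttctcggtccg
*TCH2* had CGCG at 82 and 63 bases before its start and *CML23* at 55 and 41, and both have the run ctcacgcaatct shortly before the motif, the longest they share (12 bases). *CML38* had no CGCG in this window. Of the 9 members, 4 had CGCG (*CAM2*, *TCH2*, *CML23* and *CML9*), and 10.1% of all 27443 upstream regions of the same length did. CGCG reads the same on both strands. The longer form CGCGTT, searched on both strands and overlapping CGCG, was present in *TCH2* and *CML23* only, 2 of 9 members against 2.59% of all regions. The TTGAC core that WRKY factors bind was present in 4 of 9 members (44.9% of all regions) and ACGTG in 3 of 9 (22.9%). *TCH3* has 7 annotated transcripts with different starts, and no CGCG lay within 250 bases before the gene start or before the start of its first transcript model.

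The other 6 calmodulins lay between 43.9 scaled CPM for *CAM6* and 116 for *CAM1* in Col-0, and 0 of them were 1.5-fold apart from Col-0 in either mutant. Of all kept genes, 3.01% were at least 1.5-fold higher and 5.3% lower in *exg1-1*, and 2.07% and 3.15% in *rlp44-3*. In *exg1-1* all 6 were below Col-0, from 0.845-fold for *CAM4* (0.804 to 0.889) to 0.967-fold for *CAM3* (0.923 to 1.01), with a median log2 difference of −0.19. *CAM1*, *CAM5*, *CAM6* and *CAM7* had folds of 0.870, 0.873, 0.909 and 0.885, with counting intervals that left out 1. These intervals cover counting error only, and 22.1%, 22.5%, 29.1% and 24.6% of kept genes were at least as low in *exg1-1*. For *CAM4* that share was 18.2%. The 6 genes were below Col-0 in *exg1-1* under each of the 4 scalings tried, but these scalings could not have changed that. The median log2 difference of all kept genes was −0.0044 with TMM, −0.0011 with RLE, −0.05 with upper quartile and −0.055 with library totals. No alternative thus raised *exg1-1* by as much as *CAM3*, the nearest to Col-0, lay below it (log2 difference −0.048). In *rlp44-3* the 6 genes lay between 0.937-fold for *CAM4* and 0.996-fold for *CAM1*, and with scaling by library totals 2 of the 6 were above Col-0. *CAM2*, whose protein is the same as those of *CAM3* and *CAM5*, was at 0.990-fold in *exg1-1*.

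Among the 42 other CML genes, 21 passed the filter. In *exg1-1* 6 were higher and 15 lower than Col-0, 0 reached 1.5-fold higher and 2 reached 1.5-fold lower: *CML48* (0.601-fold, 0.447 to 0.813) and *CML22* (0.663-fold, 0.439 to 1.01). Among kept genes, 49.2% lay above Col-0 in *exg1-1*, 3.01% passed the 1.5-fold mark upward and 5.3% passed it downward. *CML30* was at 1.49-fold in *exg1-1* (1.15 to 1.98). In *rlp44-3* 9 were higher and 12 lower, where 49.9% of kept genes were higher. Only *CML48* was at least 1.5-fold lower (0.616-fold, 0.458 to 0.832), against 3.15% of kept genes. The median log2 difference of these 21 genes was −0.08 in *exg1-1* and −0.0030 in *rlp44-3*. *CML36* was the only one of them 1.5-fold apart between the mutants, at 0.578-fold in *exg1-1* relative to *rlp44-3* (0.447 to 0.744). In this comparison 3% of kept genes were higher and 3.98% lower by that fold. *CML8*, the nearest relative of *CML11*, had folds of 0.731 (0.436 to 1.19) and 0.784 (0.478 to 1.28) over Col-0.

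**Figure D4:**
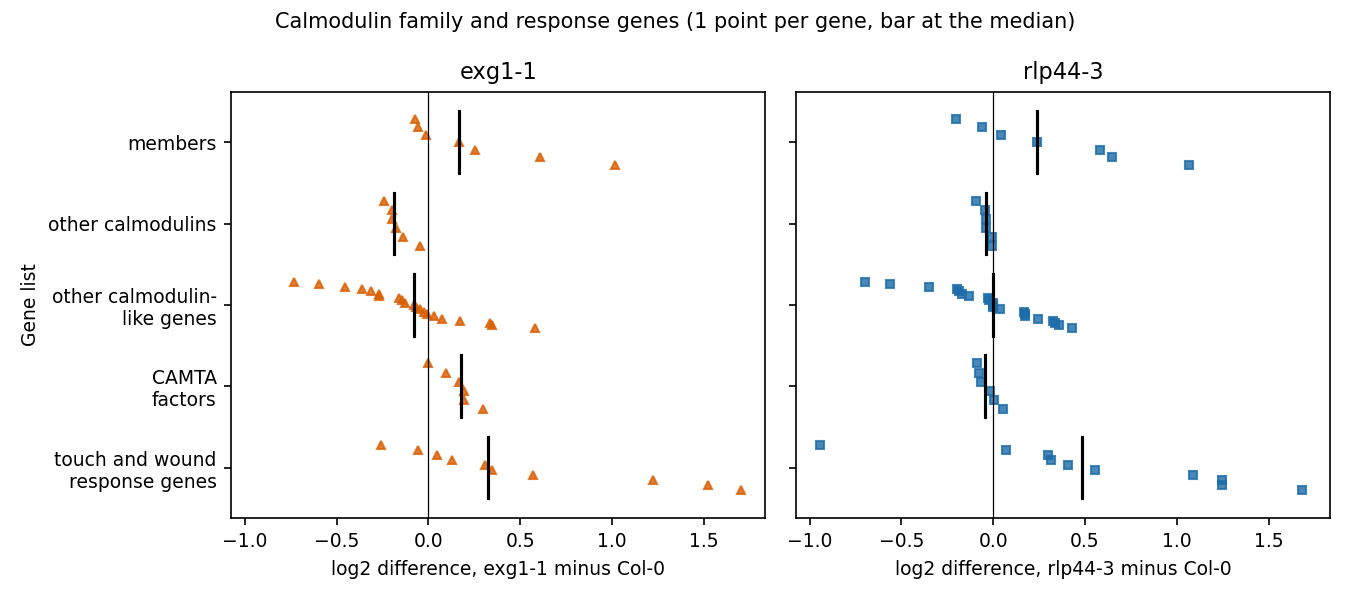
Log2 differences against Col-0 in *exg1-1* and *rlp44-3* for the genes of 5 lists that passed the filter, 1 point per gene, with a bar at the list's median. The other calmodulins lie left of 0 in *exg1-1* (median −0.19) and close to 0 in *rlp44-3* (median −0.04), while the members reach 1.01 and 1.07 and the touch and wound response genes 1.70 and 1.68.

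Genes on either side of calmodulin in calcium signalling were read from lists. Of 12 genes for calcium channels and mechanosensing, among them *MCA1*, *MSL10*, *OSCA1*, *PIEZO* and the cell wall receptor kinase gene *FER*, 0 were 1.5-fold apart from Col-0 in either mutant. In *exg1-1* 3.01% of kept genes were at least 1.5-fold higher and 5.3% lower, and in *rlp44-3* 2.07% and 3.15%. *CNGC2*, a calcium channel gene, was at 1.35-fold in *exg1-1* (1.28 to 1.41) and 0.837-fold in *rlp44-3* (0.792 to 0.884), and at 1.61-fold in *exg1-1* relative to *rlp44-3* (1.53 to 1.69). It was the only 1 of the 12 that was 1.5-fold apart between the mutants, where 3% of kept genes were higher and 3.98% lower in *exg1-1*. Of 5 calcium pump and exchanger genes that passed the filter, *CAX3* was the only one 1.5-fold apart, at 0.623-fold in *rlp44-3* (0.485 to 0.800). In that mutant 3.15% of kept genes were at least 1.5-fold lower. The 6 CAMTA genes had log2 differences between 0.000095 and 0.30 in *exg1-1*, with a median of 0.18, and between −0.09 and 0.06 in *rlp44-3*.

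A list of 10 touch and wound response genes held the remaining *TCH* gene. *TCH4* had 17.3 scaled CPM in Col-0, against 49.6 in *exg1-1* and 55.4 in *rlp44-3*, which was 2.87-fold (2.59 to 3.18) and 3.20-fold (2.90 to 3.55) over Col-0. *WRKY40*, which encodes a stress-response transcription factor, was at 3.25-fold in *exg1-1* (1.97 to 5.73) and 2.37-fold in *rlp44-3* (1.39 to 4.24), from 0.696 scaled CPM in Col-0. *WRKY53* was at 2.33-fold in *exg1-1* (1.24 to 4.83) and 2.37-fold in *rlp44-3* (1.23 to 4.82). *ZAT10*, for a zinc finger repressor, was at 1.49-fold (1.11 to 2.04) and 2.13-fold (1.61 to 2.87), and *CBF2*, a cold-response factor gene, at 1.03-fold (0.729 to 1.44) and 0.521-fold (0.340 to 0.777). In all, 3 of the 10 were at least 1.5-fold higher in *exg1-1* and 4 in *rlp44-3*, with 0 and 1 at least 1.5-fold lower, where 3.01% and 2.07% of kept genes were higher and 5.3% and 3.15% lower. *WRKY40* and *WRKY53*, with 0.696 and 0.476 scaled CPM in Col-0, passed the filter only through the mutants, so these counts too are a description. Among the 4 *TCH* genes, then, *TCH4* and *TCH3* were more than 1.5-fold higher in both mutants, *TCH2* was 1.498-fold in *rlp44-3* alone, and *CAM2* lay at 0.990-fold and 0.960-fold.

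Outside the family, the genes with a mean of at least 10 scaled CPM whose 2 log2 differences against Col-0 lay nearest to the members' median were *PRP40C* (AT3G19840), *TET8* (AT2G23810) and *IQD29* (AT2G02790). This median joins the *exg1-1* value of *TCH2* (0.17) and the *rlp44-3* value of *CML11* (0.24). No single member had both values, and the median moved with the filter on low values. The Euclidean distances of these 3 genes from the median, over the 2 log2 differences, were 0.00086, 0.0031 and 0.0031. Of 11753 genes compared, 411 lay within 0.1 of that median.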

How the data were processed

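RNA was sequenced from 9 libraries, 3 each of Col-0, *exg1-1* (spelled evg1 in the labels) and *rlp44-3*. Per the study's methods, the authors used fastp for trimming, HISAT2 with the TAIR10 genome for mapping, HTSeq for counting and DESeq2 for comparing genotypes. Libraries were made with a directional kit, which keeps the strand of the RNA. The strand setting used in counting and the tool versions are not given in the sources used here. Reads of overlapping genes on opposite strands may therefore not be told apart. In the table that the authors deposited as raw counts, the values, in units of reads, are fitted means, and 7624 of its 33341 rows had none. A further 3 columns, of no sample described here, were not used. The mutant columns were assigned to their genotype and not to single libraries.

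Columns of a genotype were summed. The filter on low values asked for 0.908 CPM, which is 10 reads at the median library size, throughout 1 or more of the genotypes, and for a total of 15 reads. Sums were scaled by TMM, trimming 30% of log ratios and 5% of levels, which gave log2 scales of 0.34 for *exg1-1* and 0.31 for *rlp44-3* against Col-0. The scaling and the intervals were tested only on simulated Poisson sums with known changes. Such sums hold counting error alone, so this check does not bear on spread between plants. Intervals are exact conditional binomial (Clopper-Pearson) on rounded sums at 95%, and folds were not given where both sums were at most 3 reads. Genes at least 1.5-fold apart were counted in place of the count test that had been planned, since the values are not counts. PCR reads are not independent molecules, so intervals cover counting error only.

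Genes named in the text were all members, the other calmodulins, chromosomal neighbours and nearest relatives of members, *TCH4*, the mutated genes, genes at least 1.5-fold apart in each list (at most the 2 furthest each way), and the 3 genes nearest in pattern. *CML30*, *ZAT10* in both mutants, *CNGC2* in its comparisons with Col-0, and list genes named without values fall outside this rule. Members and lists were chosen with earlier results of these data known. Proteins, transcripts and upstream regions were read from RefSeq's TAIR10.1 sequence and annotation and joined to the table by locus identifier alone. Protein identity was the share of matches over the shorter protein in a global alignment (BLOSUM62) of first transcript models. Calculations used Python 3.11.15, numpy 2.4.6, pandas 2.3.3, scipy 1.17.1, Biopython 1.88 and matplotlib 3.10.9.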

Additional observations from a re-analysis of the deposited data

How the results depend on the processing

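No paired analysis was possible because the 3 columns of a genotype are multiples of each other, and for the same reason omission of single libraries, edgeR and DESeq2 were not run. The number of members at least 1.5-fold higher in *exg1-1* was 2. It became 1 with upper quartile scaling, with library totals and with the minimum required in every genotype, which removes *CML38*, and 1 at 2-fold. In *rlp44-3* it was 2, and became 1 with the minimum in every genotype and 1 at 2-fold, while RLE scaling, library totals and no filter gave 3, because *TCH2* then passed 1.5-fold. Without a filter, 2 members (*CML37* and *CML39*) counted as lower in each mutant, on about 3 reads or fewer per genotype. The members' median log2 difference moved by over 1.5 times with the filter. In *exg1-1* against Col-0 it was 0.17, and became 0.071 with the minimum in every genotype and 0.011 without a filter. In *rlp44-3* against Col-0 it was 0.24, and became 0.14 and 0.051. In *exg1-1* relative to *rlp44-3* it was 0.045, and became 0.086 with the minimum in every genotype, −0.013 without a filter, 0.0054 with upper quartile scaling and −0.016 with library totals, so it has no settled sign. Of 207 values recomputed under 7 alternatives, the 144 log2 differences of single members stayed within their counting intervals. The 2-fold setting leaves these differences as they were. Each other alternative shifts all members of a comparison alike and by little. Of the counts and medians, 8 of 42 and 8 of 21 moved by over 1.5 times, to or from 0 or across 0. In all, 0 differences of 1.5-fold or more changed sign, which shifts of this size could not bring about. Leaving organelle genes out of the scaling was added after the data were seen. Depth limits *CML38*, *CML37* and *CML39* most.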
